A study of Homo sapiens with 5 samples.

Results

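The 8 genes described here encode the core of the PAF1 complex (PAF1, CTR9, CDC73, LEO1 and RTF1) and the elongation factors SPT4, SPT5 and SPT6 (SUPT4H1, SUPT5H and SUPT6H). They were chosen by name from 20037 protein-coding genes, and all 8 were found by symbol. A peak was assigned to a gene when it lay inside the gene or within 1 kb of either end, which gave 26 peaks over 5 libraries. The libraries were CUT&Tag profiles for Flag-ENL with the Y78A substitution, wild type Flag-ENL, and the histone marks H3K9bhb (β-hydroxybutyryl), H3K9cr (crotonyl) and H3K9ac (acetyl), all in HepG2, a line from a human liver cancer. In CUT&Tag an antibody directs a transposase to chromatin, and a peak is an interval where the caller counted more fragments than its local estimate of the background. The Flag-ENL proteins were stably expressed from introduced constructs, so they were present beside any ENL made by the cells. Whether the H3K9cr and H3K9ac libraries came from those cells, and whether a line was 1 clone, the labels do not say. The study asked whether ENL occupies chromatin carrying β-hydroxybutyrylation of histone H3 lysine 9.

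Each group was 1 library, so no difference between libraries had a replicate check and no test was run. The lists held 5422 peaks for Y78A, 11394 for wild type ENL, 9176 for H3K9bhb, 3852 for H3K9cr and 31493 for H3K9ac on the standard chromosomes. Read totals are unknown, so values from different libraries are set side by side without comparison of their size. The lists were also cut at different thresholds, with a lowest −log10 q near 2 in the ENL and H3K9bhb lists and of 1.34 and 1.31 in H3K9cr and H3K9ac. Peak names in the H3K9ac list begin with ENL1 and those in the H3K9cr list with CRWT-2, which are not those libraries' labels. The labels were followed, and whether the H3K9ac list is of that target was not tested, so counts are given per library and beside all genes as well as beside genes with H3K9ac. Of 10 genes typical of hepatocytes and of HepG2, 6 had H3K9ac at a gene end (60.0%, beside 56.4% of all protein-coding genes), among them APOA1, APOB and HNF4A. ALB and SERPINA1 had it only inside the gene, and TTR and FGB had no peak in any list.

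ENL binds acylated lysines of histone H3 through its YEATS domain, and Y78 is a tyrosine of the acyl-lysine pocket. ENL belongs to the super elongation complex, which contacts RNA polymerase II in part through the PAF1 complex. The PAF1 complex travels with the polymerase and helps to place ubiquitin on histone H2B. SPT4 and SPT5 form DSIF, which holds the polymerase paused near the start of a gene and aids it afterwards, and SPT6 is a histone chaperone of elongating polymerase. The genes of these factors are themselves transcribed in most cell types, and the values below describe chromatin at the genes, not the proteins they encode.

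The promoters of 3 members are shown because they carried different sets of peaks. CTR9 had wild type ENL, H3K9bhb and H3K9ac, SUPT4H1 had both ENL proteins and H3K9ac without H3K9bhb, and RTF1 had H3K9ac and neither ENL protein. Sequences are RefSeq's on GRCh38.p14, 5′ to 3′ along the gene, with 250 bases before the transcription start and 50 after it. The windows are chr11:10750996-10751295 (plus strand) for CTR9, chr17:58352152-58352451 (minus strand) for SUPT4H1 and chr15:41416845-41417144 (plus strand) for RTF1. Capitals mark matches on either strand to CCGGAAG, the core recognised by ETS factors, to GGGCGG, the GC box of SP factors and to GCATGCGC, the core recognised by NRF1.
CTR9: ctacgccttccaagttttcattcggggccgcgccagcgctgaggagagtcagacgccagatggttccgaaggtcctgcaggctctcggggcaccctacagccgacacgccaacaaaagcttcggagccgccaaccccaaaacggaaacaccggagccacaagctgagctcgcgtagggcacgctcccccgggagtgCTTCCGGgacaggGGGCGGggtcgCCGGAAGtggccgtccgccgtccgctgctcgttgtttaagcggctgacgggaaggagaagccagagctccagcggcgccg
SUPT4H1: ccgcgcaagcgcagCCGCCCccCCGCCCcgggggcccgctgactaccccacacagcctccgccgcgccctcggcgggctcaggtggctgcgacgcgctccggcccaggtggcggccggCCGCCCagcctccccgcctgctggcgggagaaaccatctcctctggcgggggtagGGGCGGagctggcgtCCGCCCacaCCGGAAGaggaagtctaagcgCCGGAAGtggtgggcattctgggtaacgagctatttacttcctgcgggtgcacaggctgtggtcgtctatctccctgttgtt
RTF1: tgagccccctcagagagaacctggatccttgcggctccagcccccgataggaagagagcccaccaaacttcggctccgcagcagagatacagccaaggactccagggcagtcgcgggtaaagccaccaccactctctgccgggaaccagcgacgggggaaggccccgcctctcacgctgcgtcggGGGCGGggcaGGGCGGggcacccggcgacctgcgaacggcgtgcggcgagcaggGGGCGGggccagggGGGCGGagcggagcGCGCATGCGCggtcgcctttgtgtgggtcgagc

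CCGGAAG occurred 2 times in each of the CTR9 and SUPT4H1 windows and in no other member's. Of 21987 promoters of protein-coding genes, 12.8% held CCGGAAG in any number. The motifs were chosen with earlier results or the sequences in view, so these shares are context only and enrichment was not tested. In CTR9 the matches began at bases 197 and 221, and in SUPT4H1 at bases 198 and 219, counted from 1 at the 5′ end, with the transcription start at base 251. The RTF1 window held 4 GC boxes and GCATGCGC on both strands, overlapping itself, at bases 268 and 270, just after the start. GGGCGG was in the window of every member in the promoter table, with more matches at SUPT4H1 than at RTF1. Of all promoters 56.3% held GGGCGG and 3.68% held GCATGCGC. CCAAT, present in 34.7% of promoters, occurred 3 times at PAF1, whose window also had 2 GC boxes. AAGATGGC, the core recognised by YY1, was in the SUPT5H window and in 3.54% of promoters. TATAAA and TGACGTCA were in none of the windows of the 7 members with an entry in the promoter table. GC content was 66.3% at CTR9, 71.3% at both SUPT4H1 and RTF1, and between 57.7% and 61.7% at the windows starting at the first annotated start of the other members, beside a median of 62.3% over all promoters. The wild type ENL summit lay at base 55 of the CTR9 window and the H3K9bhb summit at base 62, both upstream of the CCGGAAG matches. The Y78A summit of SUPT4H1 lay at base 125, and its wild type summit lay outside the printed bases.

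All 8 genes carried H3K9ac at a gene end, and 6 carried wild type ENL there. Y78A had a gene-end peak at 2 members, LEO1 and SUPT4H1, beside 14.6% of all protein-coding genes. Wild type ENL was at PAF1, CTR9, CDC73, LEO1, SUPT4H1 and SUPT5H, beside 28.6% of all genes. The 4 with wild type ENL and no Y78A at an end were PAF1, CTR9, CDC73 and SUPT5H, beside 14.4% of all genes. H3K9bhb was at CTR9 and CDC73, and 23.8% of all genes had it, so its share of the members was close to the background. H3K9cr was at no gene end of the 8 (95% Wilson interval up to 32.4%, counting error only), and was at 4.49% of all genes. The 8 are the whole named set, so the interval does not describe a larger group. H3K9ac was at 56.4% of all genes. Every member had H3K9ac, and of all genes with a peak of the library labelled H3K9ac at an end, 25.6% had Y78A, 49.7% wild type ENL, 41.6% H3K9bhb and 7.78% H3K9cr at an end.

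**Figure D1:**
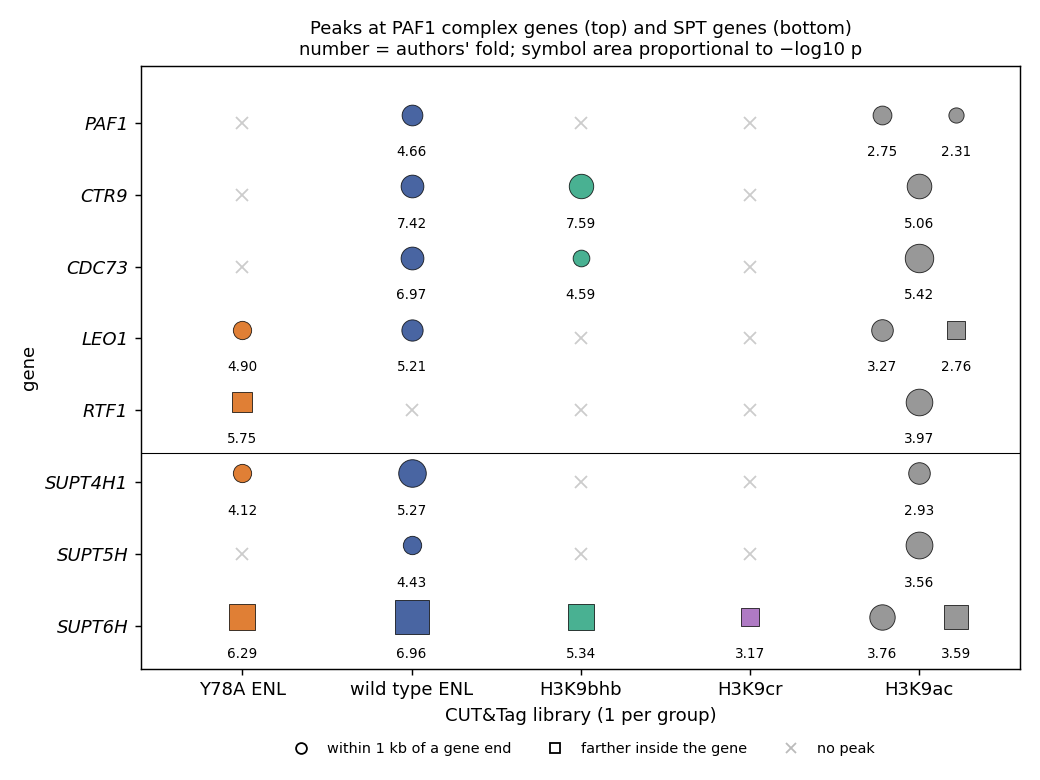
Peaks of the 8 genes in each library, with the authors' fold printed under each symbol, symbol area proportional to −log10 p, circles for peaks within 1 kb of a gene end and squares for peaks farther inside the gene. H3K9ac fills every row, wild type ENL 7 of 8 rows, and SUPT6H is the row with a peak in all 5 libraries.

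Counting the whole gene as well as its ends added SUPT6H to the Y78A, wild type ENL, H3K9bhb and H3K9cr counts and RTF1 to the Y78A count. Y78A was then at 4 members (LEO1, RTF1, SUPT4H1 and SUPT6H), beside 19.1% of all genes. Wild type ENL was at 7, all but RTF1, beside 35.9%. Only SUPT6H among the 8 had wild type ENL inside the gene and not at an end, beside 7.25% of all genes. H3K9bhb was at 3 (CTR9, CDC73 and SUPT6H), beside 31.2%, and H3K9cr was at SUPT6H alone, beside 9.34%. H3K9ac stayed at all 8, beside 64.8%. Longer genes have more room for a peak, and the members ran from 5.5 kb (PAF1) to 132.8 kb (CDC73).

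**Figure D2:**
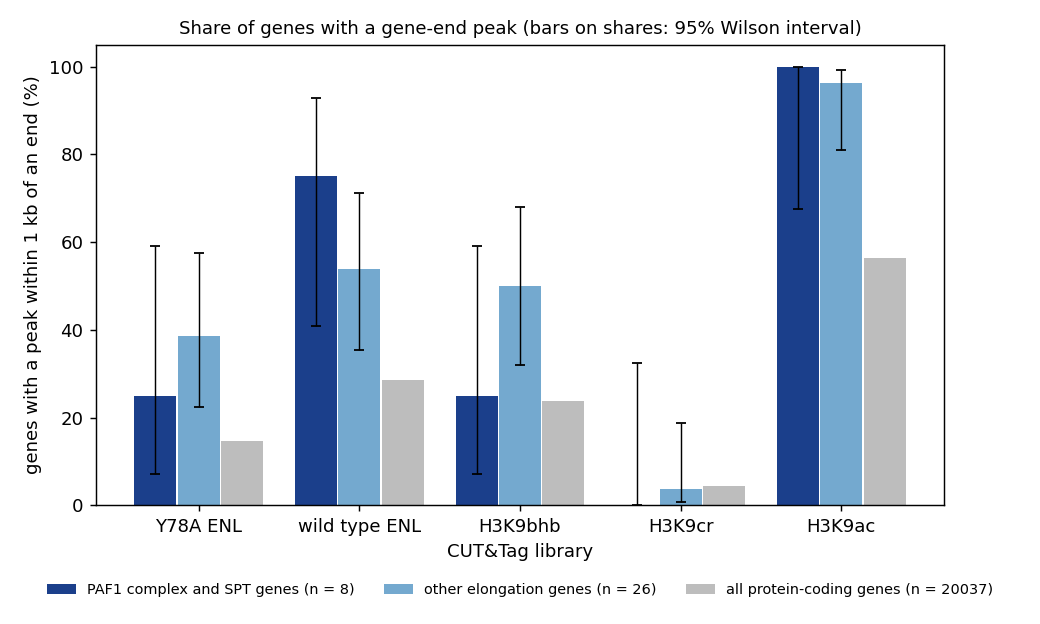
Share of genes with a peak within 1 kb of an end, in percent, for the 8 PAF1 complex and SPT genes, 26 other elongation genes and all protein-coding genes; lines are 95% Wilson intervals that cover counting error only. Of the 8 genes, 2 have Y78A, 6 have wild type ENL, 2 have H3K9bhb and all have H3K9ac.

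The gene-end peaks lay at the start of the gene. For the 7 members whose start is in the promoter table, 16 of 16 gene-end peaks were within 1 kb of the transcription start and none was at the far end alone. Over 9497 genes with a single start at a gene boundary, wild type ENL was at the start of 31.1% and at the far end of 1.94%, and H3K9ac was at 61.4% and 5.28%. The 5 wild type ENL summits at these starts were all upstream, by 35 to 263 bp, with a median of −196 bp. Of 4538 wild type summits within 1 kb of the nearest start, 65.4% were upstream, with a median of −88 bp. The 8 H3K9ac summits at the members' starts lay on both sides, 3 upstream and 5 downstream, with a median of 114.5 bp downstream. Over all genes 36.0% of H3K9ac summits near a start were upstream. The members' distances are from their own start, and the series values from the nearest start of any protein-coding gene. Their medians and shares are therefore not the same measure.

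**Figure D3:**
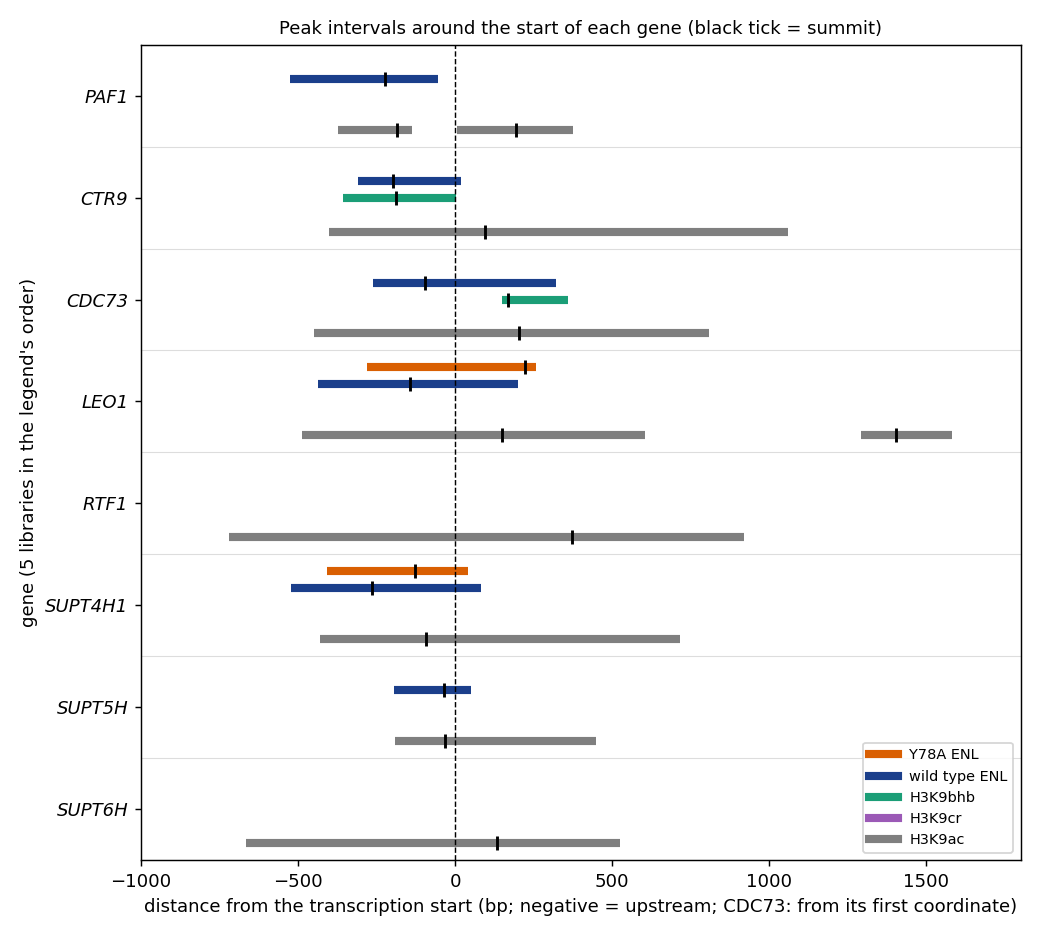
Peak intervals in bp from the transcription start of each gene, read along the gene, with a black tick at the summit. Wild type ENL intervals lie mostly upstream of the start, while the H3K9ac intervals reach farther into the gene; peaks of SUPT6H and RTF1 farther inside are outside the range drawn.

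PAF1, the subunit that names the complex, lies on chromosome 19 (39385629 to 39391106, minus strand, hg38). Its wild type ENL peak (39391160 to 39391631) had a fold of 4.66 and a −log10 p of 11.0, which put it at percentile 38.9 by fold and 48.6 by p of the wild type list. Folds, p and q are the authors' values for each peak, and a percentile is the share of peaks in the same list at or below that value. H3K9ac was split into 2 peaks, with folds of 2.75 and 2.31 and summits 195 bp downstream and 186 bp upstream of the start. The second covered 50.2% of the wild type ENL peak, with summits 37 bp apart. No Y78A, H3K9bhb or H3K9cr peak was assigned to PAF1, and the nearest lay 10.3 kb, 43.2 kb and 535.1 kb from the gene. The start of MED29, a Mediator subunit gene on the other strand, is 272 bp from that of PAF1, and the wild type peak covers it, with its summit 49 bp away. The peak can belong to either gene. SAMD4B, which encodes an RNA-binding protein, overlaps most of PAF1 from the other side.

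CTR9, the scaffold subunit of the complex with tetratricopeptide repeats, lies on chromosome 11 (10751246 to 10779746, plus strand) with no other annotated gene within 1 kb. Its wild type ENL peak (10750938 to 10751265) had a fold of 7.42 and a −log10 p of 13.2. The H3K9bhb peak (10750889 to 10751250) had a fold of 7.59 and a −log10 p of 15.2. The summits of these peaks were 7 bp apart, and 95.4% of the wild type ENL peak lay within the H3K9bhb peak. H3K9ac formed a peak of 1462 bp, at percentile 94.4 by width of its list, that contained both. By fold the wild type peak was at percentile 92.2 and the H3K9bhb peak at 94.0. By fragments at the summit they were at percentiles 23.4 and 46.9. The wild type summit held 16 fragments over a local background of 1.29, which was at percentile 0.6 of the wild type list. The nearest Y78A peak was 29.1 kb away.

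CDC73 encodes parafibromin, a tumour suppressor that binds RNA polymerase II within the complex. It lies on chromosome 1 (193122031 to 193254815), and its distances are given from its first coordinate. The wild type ENL peak (193121770 to 193122352) had a fold of 6.97 and a −log10 p of 13.3, with its summit 96 bp before that coordinate. The H3K9bhb peak (193122182 to 193122392) had a fold of 4.59 and a −log10 p of 7.12, which put it at percentile 9.7 by p of its list. It overlapped the wild type peak by 171 bp, or 29.3% of that peak, and the summits were 263 bp apart. Its summit was instead 36 bp from that of H3K9ac. The H3K9ac peak had the highest −log10 p of the 11 H3K9ac peaks of the 8 genes, at 20.7. CTR9 and CDC73 therefore had the same libraries at the gene end, but only at CTR9 did the wild type ENL and H3K9bhb summits coincide within 10 bp. In wild type ENL and H3K9bhb the summits held 16 and 20 fragments at CTR9, and 18 and 12 at CDC73. Whether such counts fix the summit positions closely was not tested. A Y78A peak stood 9.4 kb before CDC73, beside a wild type peak with a fold of 6.15. B3GALT2, a galactosyltransferase gene, lies inside CDC73 and had none of the assigned peaks near it.

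LEO1, the subunit that pairs with PAF1, lies on chromosome 15 (51938025 to 51971778, minus strand). Both ENL proteins had a peak at its start. The Y78A peak (51971520 to 51972058) had a fold of 4.90 and a −log10 p of 8.56, and the wild type peak (51971578 to 51972213) a fold of 5.21 and a −log10 p of 11.6. They overlapped by 481 bp, and their summits were 366 bp apart. The Y78A summit lay 222 bp downstream and the wild type summit 144 bp upstream of the start. These summits held 15 and 22 fragments, and how firmly such counts fix a position was not tested. The Y78A summit was 72 bp from that of H3K9ac. A second H3K9ac peak lay 1403 bp inside the gene. The nearest H3K9bhb peak was 30.3 kb from LEO1. The gene record of MAPK6, which encodes an atypical MAP kinase, begins 46 bp beyond LEO1, and all 3 start peaks cover that boundary. The transcription start listed for MAPK6 is much farther off, 47441 bp from that of LEO1. The wild type summit lies 97 bp inside MAPK6, while the Y78A and H3K9ac summits lie outside it. These peaks can belong to either gene. The set of libraries at LEO1 and SUPT4H1, both ENL proteins and H3K9ac without H3K9bhb or H3K9cr, was present at 297 genes, or 1.48% of all.

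RTF1, which stimulates ubiquitylation of H2B and is held less firmly than the other subunits in human cells, lies on chromosome 15 (41417095 to 41483563, plus strand). It was the member with no wild type ENL peak. H3K9ac at its start was strong, with a −log10 p of 18.1 (percentile 87.9) and the greatest width of any H3K9ac peak of the 8 genes, 1640 bp. The Y78A peak (41426345 to 41426689) lay 9.4 kb inside the gene, with a fold of 5.75 and a −log10 p of 9.32. It held 13 fragments at the summit (95% Poisson interval 6.92 to 22.2) over a background of 1.44. No peak of the other 4 lists overlapped it. Such peaks were few, with 117 of 5422 Y78A peaks overlapped by no other list and 38 of the 1263 Y78A peaks inside genes (3.01%). Among the 117, the RTF1 peak was at percentile 56.4 by p. In the whole Y78A list it was at percentile 30.5 by p and 12.7 by fragments at the summit. The nearest wild type ENL peak was 9.7 kb beyond the gene.

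SUPT4H1 and SUPT5H encode the subunits of DSIF. SUPT4H1 lies on chromosome 17 (58345178 to 58352201, minus strand). Its Y78A peak (58352159 to 58352608) had a fold of 4.12 and a −log10 p of 8.54, and its wild type peak (58352117 to 58352724) a fold of 5.27 and a −log10 p of 19.4. The Y78A interval lay entirely within the wild type interval, with summits 137 bp apart. Within their own lists the Y78A peak was at percentile 20.9 by p and the wild type peak at 85.0. The wild type peak held 43 fragments at its summit (interval 31.1 to 57.9), the most of the 6 wild type gene-end peaks. The H3K9ac interval contained the Y78A peak and 84.7% of the wild type peak, and the nearest H3K9bhb peak was 39.2 kb away. RNF43, a ubiquitin ligase gene read from the same strand, ends 298 bp beyond the start of SUPT4H1, and the non-coding gene TSPOAP1-AS1 spans the whole of it.

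SUPT5H lies on chromosome 19 (39445582 to 39476670, plus strand), 54.5 kb from PAF1. Its wild type ENL peak (39445388 to 39445633) was the weakest of the 7 of these genes, with a fold of 4.43 and a −log10 p of 8.62 (percentile 24.1). It was also the narrowest, at 246 bp. H3K9ac there had the most fragments at its summit of any H3K9ac peak of the 8 genes, 66 (interval 51.0 to 84.0), at percentile 95.9 of its list. The summits of wild type ENL and H3K9ac were 3 bp apart. No Y78A peak was assigned, and the nearest lay 43.8 kb away. The nearest H3K9bhb peak was 9.5 kb away. A wild type ENL peak and an H3K9ac peak just outside the assigned window stood 4.16 kb and 3.93 kb beyond the gene, with folds of 4.15 and 3.23.

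SUPT6H lies on chromosome 17 (28662205 to 28702679, plus strand), and its peaks were divided between places 36 kb apart. The start, which is 11 bp from that of SDF2 on the other strand, had H3K9ac and no peak of the other libraries. The H3K9ac peak there had a fold of 3.76 and a −log10 p of 16.5. Inside the gene, 36.2 to 36.4 kb after the start, all 5 libraries had a peak. The Y78A peak (28698328 to 28698792) had a fold of 6.29 and a −log10 p of 18.4, and the wild type peak (28698174 to 28698828) a fold of 6.96 and a −log10 p of 29.4. H3K9bhb had a fold of 5.34, H3K9cr of 3.17 and H3K9ac of 3.59. These Y78A and wild type peaks had the highest −log10 p of their libraries among the 8 genes, at percentiles 85.6 and 95.8 of their lists. The Y78A, wild type and H3K9bhb summits lay within 28 bp of each other, and the H3K9cr and H3K9ac summits were 5 bp apart, 107 and 102 bp from that of wild type ENL, in that order. The gene table has no other gene at this place. Of 3075 wild type ENL peaks inside genes and away from their ends, 315 (10.2%) were overlapped by all of the other lists.

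**Figure D4:**
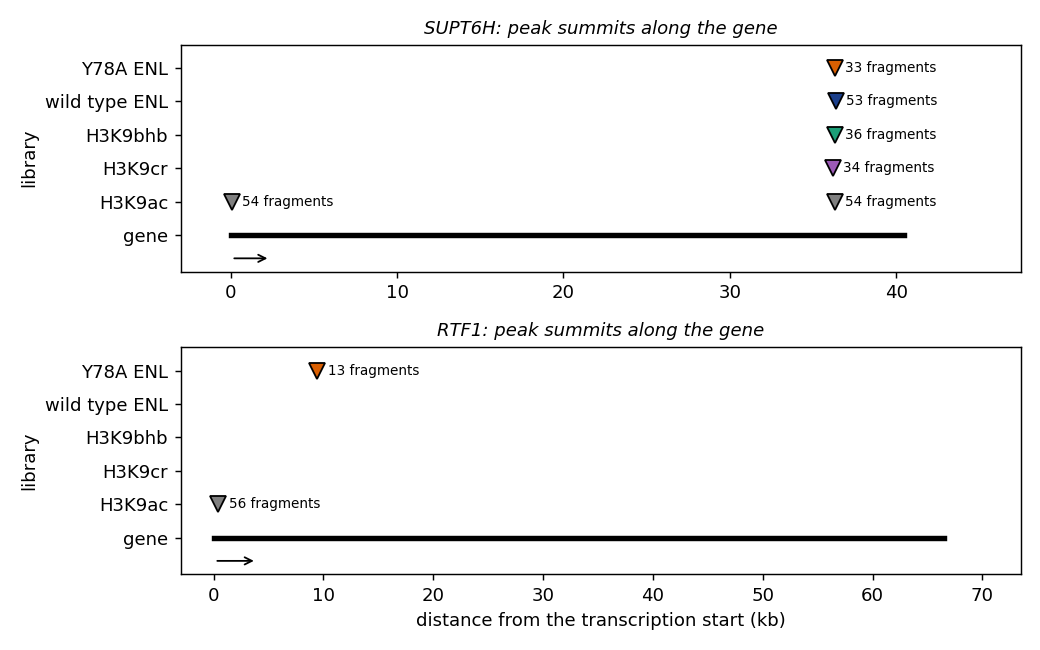
Peak summits along SUPT6H and RTF1 in kb from the transcription start, with the fragments recovered at each summit. At SUPT6H the summits of all 5 libraries line up at 36.2 to 36.4 kb while the start has H3K9ac alone, and at RTF1 the single Y78A summit stands at 9.4 kb with 13 fragments.

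The lists were also compared peak by peak. Of the 7 wild type ENL peaks of the 8 genes, 3 were overlapped by Y78A (42.9%), at LEO1, SUPT4H1 and SUPT6H. The 95% Wilson interval of 15.8 to 75.0 covers counting error only. Over all 5046 wild type peaks at gene ends, Y78A overlapped 46.8%. H3K9bhb also overlapped 3 of the 7, at CTR9, CDC73 and SUPT6H, beside 66.9% of all gene-end wild type peaks. H3K9cr overlapped 1 of 7, beside 13.4%, and H3K9ac all 7, beside 94.3%. These 7 include the peak inside SUPT6H, which is not a gene-end peak. Of the 6 at gene ends, Y78A overlapped 2, H3K9bhb 2, H3K9cr 0 and H3K9ac 6. At gene ends, neither of the 2 members with Y78A had H3K9bhb, while 87.7% of the 2934 genes with Y78A at an end had it. In the whole series, wild type ENL at a gene end came with Y78A at 49.8% of genes, with H3K9bhb at 71.3%, with H3K9cr at 14.4% and with H3K9ac at 98.0%. Of the 6 members with wild type ENL at an end, 2 had Y78A, 2 had H3K9bhb, none had H3K9cr and all had H3K9ac. Whether these shares differ from those of the series was not tested.

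The number of fragments behind each peak was small. Whole numbers of summit fragments and the caller's local background were recovered from the deposited fold and p. The 4 Y78A summits held 13 to 33 fragments, the 7 wild type summits 16 to 53, the 3 H3K9bhb summits 12 to 36, the H3K9cr summit 34 and the 11 H3K9ac summits 34 to 66. The H3K9bhb summit of CDC73, with 12 fragments (interval 6.20 to 21.0), and the Y78A summit of RTF1 had the fewest within their own libraries. Intervals are Poisson intervals for counting error only, and the fragments may include copies made by amplification. At SUPT6H the Y78A summit held 33 fragments and the wild type summit 53, at SUPT4H1 20 and 43, and at LEO1 15 and 22. Local backgrounds at the same places were 4.41 and 6.76, 4.10 and 7.34, and 2.27 and 3.41 fragments in Y78A and wild type ENL, lower in Y78A at each place, so whether occupancy differed cannot be told apart from depth.

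**Figure D5:**
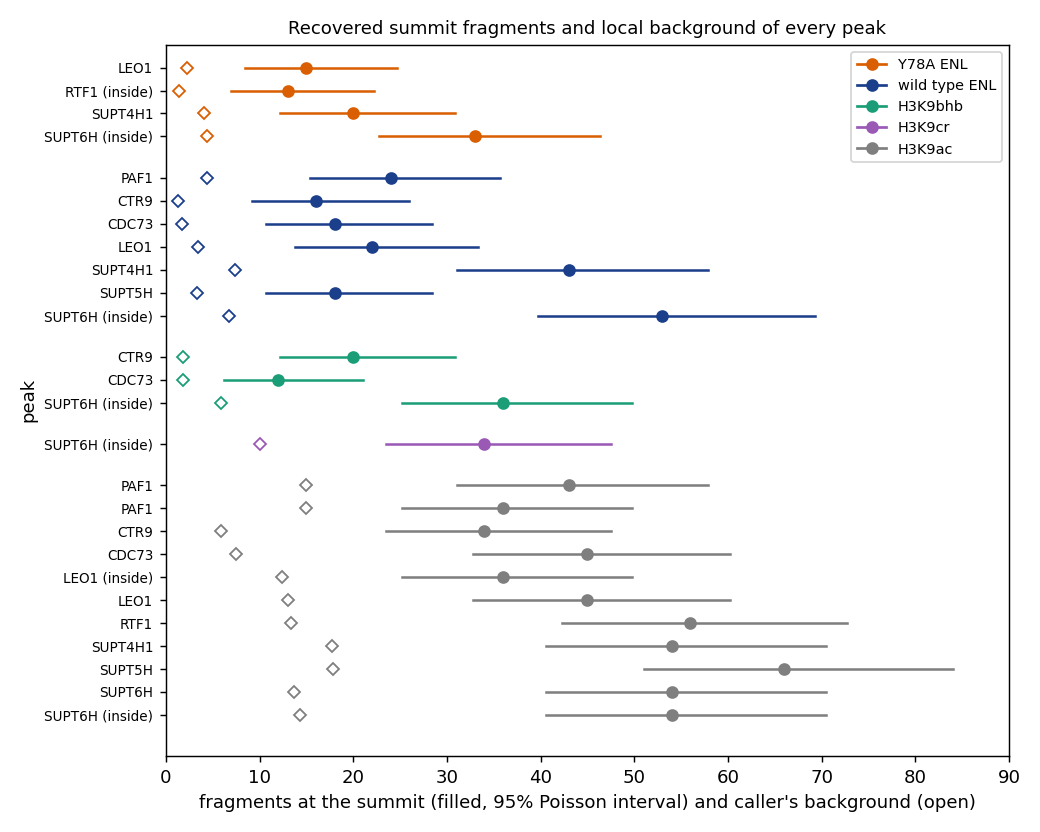
Fragments recovered at the summit of every peak of the 8 genes (filled, with 95% Poisson intervals) and the caller's local background (open diamonds), by library. The wild type ENL summits run from 16 to 53 fragments. Each interval lies above its own background, which follows from the peaks having been called against that background.

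Beyond the 8 genes, 26 other elongation genes were examined in the same way. Y78A was at a gene end of 10 of 26, wild type ENL at 14, H3K9bhb at 13, H3K9cr at 1 and H3K9ac at 25, beside the shares of all genes given above (14.6%, 28.6%, 23.8%, 4.49% and 56.4%). SKIC8, which encodes a further subunit of the human PAF1 complex shared with the SKI complex, had H3K9ac and nothing else. Partners of SPT6 and the FACT chaperone resembled it, with wild type ENL at SUPT16H among 3 genes, and NELF, the factor that pauses polymerase with DSIF, had it at NELFA among 4. None of SKIC8, these 3 and these 4 had Y78A or H3K9bhb at an end. By contrast, 5 of 6 kinases and cyclins acting on the polymerase tail (CCNT1, CCNT2, CDK12, CDK13 and CCNK) had Y78A, wild type ENL and H3K9bhb, while CDK9 had H3K9ac alone. CDK9, CDK12 and CDK13 were named after their values were seen. CCNT2 had peaks of all 5 libraries. Of the 6 genes of histone ubiquitylation and methylation, all had H3K9bhb, 3 had Y78A and 4 had wild type ENL.

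Among the 26, wild type ENL without Y78A was found at SUPT16H (wild type fold 4.75), NELFA (4.30), TCEA1, which encodes TFIIS (5.38), and RNF40, a ligase for H2B (6.29). Over all genes 14.4% had wild type ENL and no Y78A at an end, and the share of the 26 was close to that background. With both proteins, the highest wild type folds were at ELOC, an elongin subunit, CCNK, the cyclin of CDK12 and CDK13, CCNT2 and CCNT1. The Y78A and wild type folds were 6.55 and 7.92 at ELOC, 7.06 and 7.90 at CCNK, 7.64 and 7.70 at CCNT2, and 5.51 and 7.24 at CCNT1. By the highest −log10 p at a gene end in each of the 5 libraries, on a log10 scale, the gene of this list nearest to PAF1 and to LEO1 was TCEA1, at distances of 0.147 and 0.985. RNF40 was nearest to CTR9 (0.199) and CDC73 (0.254), NELFA to SUPT5H (0.052), SKIC8 to RTF1 (0.015), NELFCD to SUPT6H (0.008) and CCNT1 to SUPT4H1 (0.978). A missing peak counted as 0, so the long distances of LEO1 and SUPT4H1 restate that no gene of the list had their set of libraries. Second in order were SUPT16H for LEO1, at 0.986, and a gene at 0.016 for RTF1, so these were near ties.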

How the data were processed

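The 5 deposited files are MACS2 narrowPeak lists on hg38, 1 per library, and FastQC, Bowtie2 and deepTools are also named, per the submitters' processing notes. The labels name no versions, parameters, control library or duplicate handling. Per the file layout, the deposited fold compares the summit signal with the caller's background, and p and q were deposited as −log10 values. The authors' score column equals the −log10 q times 10 without its decimals for at least 99.96% of peaks. A transposase favours open chromatin, so a peak does not separate a mark from accessibility.

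Groups came from the sample titles. Peaks on 24 standard chromosomes were joined to RefSeq genes (GRCh38.p14, the assembly also named hg38) when they overlapped by at least 1 bp. Start positions came from the promoter table, which lists 7 of the 8 genes. Fragments were recovered by solving the deposited fold, with 1 added to signal and background, and the Poisson p for a whole number, which matched within a relative tolerance of 3e-05 for at least 99.98% of peaks. Shares have Wilson intervals. The overlap and recovery code was tested on simulated data. Python 3.11.15, pandas 2.3.3 and scipy 1.17.1 were used.

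The 8 genes, the wider list, the hepatocyte genes and the motifs were chosen with earlier results or the sequences in view. Named genes were the 8, SKIC8, those of the wider list that had wild type ENL but lacked Y78A, the 4 highest wild type folds with both, neighbours sharing a peak or overlapping, and the nearest in pattern. Members of the kinase and cyclin group were named beyond this rule, after their values were seen. Alternatives varied the window, the overlap, the threshold and the list length. Results that need certain genes of these lists by name are not reported here.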

Additional observations from a re-analysis of the deposited data

How the results depend on the processing

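Of 96 alternative values for 19 counts, 79 stayed within 1.5 times the reported count and 17 did not. The list length moved most. With each list limited to its 3852 strongest peaks by p, Y78A was at 0 members at a gene end and 2 with the gene included (RTF1 and SUPT6H). Wild type ENL was then at 1 (SUPT4H1) and 2, H3K9bhb at a gene end of 1 (CTR9), and H3K9ac at 3 (CDC73, RTF1 and SUPT5H) by either count. Of the 2 wild type peaks left, 1 was overlapped by Y78A, 1 by H3K9bhb and 0 by H3K9ac, and the 26 other elongation genes had H3K9bhb at 7 and H3K9ac at 10. This setting keeps all H3K9cr peaks and a small part of the H3K9ac list. With a −log10 q of at least 5, H3K9bhb was at a gene end of 1 member, CTR9. Counting the transcription start only, which leaves out the inside of genes and CDC73, gave Y78A 2, H3K9bhb 1 and H3K9cr 0 in place of the counts with the gene included, and H3K9bhb 1 at a gene end. No direction was tested, and windows of 500 and 2500 bp, summits in place of overlap and a common q threshold moved no count beyond 1.5 times. With 12 to 66 fragments at a summit and 1 library per group, a missing peak says that none was called at this depth, not that the protein or mark is absent. No paired analysis was possible because each group has 1 library.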
